A study of Homo sapiens with 5 samples.

Results

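The 10 genes described here are MAPK feedback and immediate early genes, chosen by symbol from the genes named on the arrays: the Sprouty and SPRED inhibitors SPRY1, SPRY4 and SPRED2, the phosphatases DUSP1, DUSP4 and DUSP10, the immediate early genes EGR1 and IER3, and the ETS factors ETV1 and ETV5. All 10 were on the table, each with 1 probe set, among 14916 named genes, and all 10 reached the level floor defined below on at least 1 array. They were measured in 5 lines made from HMLE, human mammary epithelial cells immortalised with telomerase and a viral large T antigen. The control was a line with the bacterial reporter LACZ. The other 4 lines overexpressed 1 transcription factor each, FOXQ1, SNAI1, TWIST1 or ZEB2, and such factors push epithelial cells towards a mesenchymal state (EMT). None was given a treatment, and RNA came from subconfluent cultures. Vectors, promoters, growth factors in the medium, and whether a line was 1 clone or a pool are not stated in the sources used here. The study asked which changes the EMT models had in common.

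Each line had 1 array, so no value has a replicate error, no test was possible and no p-value is given. Levels are the deposited values, taken to be log2, and a difference is an array minus LACZ unless another pair is named. To be called higher or lower, a gene had to differ by 2-fold or more, which is 1 on the log2 scale. The brighter array of the 2 also had to reach a floor of 4.72, the median of the gene mean levels. The scale had been transformed by the authors, so differences are not exact ratios. The FOXQ1 gene was at 6.23 on the FOXQ1 array and from 3.56 to 3.61 elsewhere, while the other 2 measured factors were above LACZ on every factor array. ZEB2 was at 3.57 on LACZ, 7.39 on ZEB2, 7.03 on TWIST1, 6.23 on SNAI1 and 6.85 on FOXQ1. TWIST1 was at 5.55 on LACZ, 8.55 on ZEB2, 9.96 on TWIST1, 9.18 on SNAI1 and 8.2 on FOXQ1. The SNAI1 gene was not analysed here. Of the mammary epithelial markers 4 were measured, EPCAM, ITGA6, DSP and SFN, with 4 lower on FOXQ1, SNAI1 and TWIST1 and 3 on ZEB2. Their mean level was 14.22 on LACZ, and in the order FOXQ1, SNAI1, TWIST1 and ZEB2 it was 8.81, 8.12, 9.26 and 9.81. The endothelial markers KDR and TEK and the leukocyte markers CD2, CD14, CSF1R and CD74 were below the floor on all 5 arrays. PTPRC, another leukocyte marker, lay between 4.9 and 5.03, LAPTM5 differed by 4.27, -0.51, 1.11 and -2.4, and EMCN, an endothelial marker, by 0.52, 0.15, 0.23 and 0.02. The fibroblast marker COL1A2 was higher on every factor array, and the other 2 measured fibroblast markers, PDGFRA and DPT, had their highest levels on TWIST1. The part of these markers in the differences below was not tested. In bulk RNA, fewer cells that express a gene and less RNA per cell cannot be told apart.

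Receptor tyrosine kinases signal through RAS, RAF and MEK to the kinase ERK, one of the mitogen-activated protein kinases (MAPK). Within minutes ERK and its relatives p38 and JNK switch on immediate early genes, and ERK then raises the transcription of its own inhibitors. Sprouty and SPRED proteins act between the receptor and RAF, and some dual-specificity phosphatases (DUSPs) remove the activating phosphates from the MAPKs. ETV1 and ETV5, members of the PEA3 branch of ETS factors, are known for following FGF and ERK signalling.

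Promoters are shown for 5 of the genes because their levels set the lines apart in different ways: EGR1 and DUSP1 were higher on all 4 factor arrays, SPRY1 was lower on all 4, SPRY4 was lower on FOXQ1 alone among the 4, and ETV1 was lower on FOXQ1 and higher on the other 3. Each is the RefSeq sequence from 250 bases before to 50 bases after 1 start site in GRCh38.p14, written 5′ to 3′ along the gene. For SPRY4 and ETV1 that site lies inside the gene as RefSeq bounds it, so the window is not upstream of the whole gene. The 7 members with a promoter in the RefSeq table were searched on both strands for 6 motifs, and capitals mark every match. The motifs were the CArG box, bound by serum response factor, the cyclic AMP response element TGACGTCA, the AP-1 site TGANTCA, the E-box CAGGTG known for SNAI and ZEB factors, the ETS site CCGGAA and the forkhead core TGTTTA. No matches overlapped. EGR1 lies at chr5:138465229-138465528 on the plus strand, DUSP1 at chr5:172771146-172771445 on the minus strand, SPRY1 at chr4:123396545-123396844 on the plus strand, SPRY4 at chr5:142324198-142324497 on the minus strand, and ETV1 at chr7:13990653-13990952 on the minus strand.
EGR1: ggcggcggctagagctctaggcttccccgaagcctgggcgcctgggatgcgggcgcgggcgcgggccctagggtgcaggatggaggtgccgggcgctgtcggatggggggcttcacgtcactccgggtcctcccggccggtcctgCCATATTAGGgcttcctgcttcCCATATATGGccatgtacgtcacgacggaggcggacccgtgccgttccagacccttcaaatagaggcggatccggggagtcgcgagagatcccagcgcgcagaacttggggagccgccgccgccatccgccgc
DUSP1: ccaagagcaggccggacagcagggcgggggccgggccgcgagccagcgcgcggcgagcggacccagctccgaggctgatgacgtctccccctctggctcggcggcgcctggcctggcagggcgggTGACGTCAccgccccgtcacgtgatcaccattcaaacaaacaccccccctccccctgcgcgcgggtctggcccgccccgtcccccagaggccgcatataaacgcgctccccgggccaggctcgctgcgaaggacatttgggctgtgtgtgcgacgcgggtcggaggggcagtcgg
SPRY1: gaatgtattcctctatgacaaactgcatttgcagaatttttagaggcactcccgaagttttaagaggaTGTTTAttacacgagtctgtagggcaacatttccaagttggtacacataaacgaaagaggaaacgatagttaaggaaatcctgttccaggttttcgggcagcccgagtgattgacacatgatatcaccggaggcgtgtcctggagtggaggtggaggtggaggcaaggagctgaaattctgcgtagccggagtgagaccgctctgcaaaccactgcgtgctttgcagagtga
SPRY4: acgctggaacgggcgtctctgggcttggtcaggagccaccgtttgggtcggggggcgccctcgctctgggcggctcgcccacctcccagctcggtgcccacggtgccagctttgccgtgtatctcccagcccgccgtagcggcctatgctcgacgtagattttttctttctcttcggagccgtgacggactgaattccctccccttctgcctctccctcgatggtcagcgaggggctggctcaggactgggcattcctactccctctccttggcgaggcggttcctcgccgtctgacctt
ETV1: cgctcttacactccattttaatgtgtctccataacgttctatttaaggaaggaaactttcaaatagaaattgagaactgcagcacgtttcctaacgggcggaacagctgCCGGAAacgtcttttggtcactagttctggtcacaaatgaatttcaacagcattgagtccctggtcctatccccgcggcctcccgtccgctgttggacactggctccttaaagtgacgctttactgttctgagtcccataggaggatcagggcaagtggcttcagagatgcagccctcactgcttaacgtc

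EGR1 held 2 CArG boxes, from -105 to -96 and from -83 to -74 relative to the start site, and a CArG box was in 1.29% of 27305 promoters of this length. DUSP1 held 1 cyclic AMP response element, from -125 to -118, which 1.98% of the promoters had. The ETS site of ETV1 lay from -141 to -136 and the forkhead core of SPRY1 from -182 to -177, and these motifs were in 17.6% and 12.4% of promoters. SPRY4, SPRED2 and DUSP10 held none of the 6. The AP-1 site and the E-box, present in 7.76% and 20.6% of promoters, were in none of the 7. A match describes the letters of this window and does not show binding.

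On the FOXQ1 array all 10 genes were called, 8 lower and 2 higher. The lower genes were SPRY1, SPRY4, SPRED2, DUSP4, DUSP10, IER3, ETV1 and ETV5, and the higher ones DUSP1 and EGR1. Of all named genes, 6.98% were called lower and 6.54% higher on this array. Among the 8495 named genes with at least 1 array at the floor, these shares were 12.3% and 11.5%. The median difference of the 10 genes was -2.2, against 0 over all named genes. On SNAI1, 3 were called higher and 2 lower, against 4.26% and 8.02% of all named genes. TWIST1 also had 3 higher and 2 lower, against 7.27% and 4.22%. On ZEB2, 4 were higher and 3 lower, against 6.4% and 4.32%. Among the genes with an array at the floor, the shares higher and lower were 7.47% and 14.1% on SNAI1, 12.8% and 7.42% on TWIST1, and 11.2% and 7.59% on ZEB2. The 2 of 10 lower on SNAI1 is thus near its background, as is the 2 of 10 higher on FOXQ1, against 11.5%. The medians of the 10 genes were -0.38 on SNAI1, 0.67 on TWIST1 and 0 on ZEB2, against -0.09, 0 and 0 over all named genes. With a higher floor, at percentile 75 of the gene means, 5 genes were lower on FOXQ1, where SPRY1, DUSP4 and ETV1 were no longer called, and IER3 alone was lower on SNAI1 and TWIST1. The 10 were chosen with earlier results of these arrays known and were not drawn at random.

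**Figure D1:**
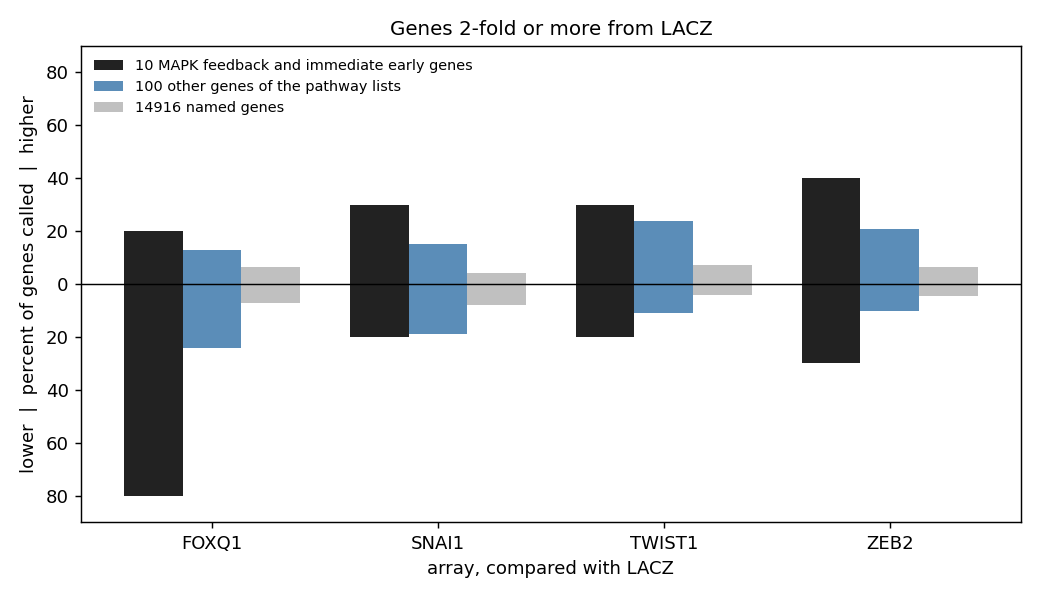
Percent of genes at least 2-fold higher (above 0) or lower (below 0) than LACZ on each factor array, for the 10 MAPK feedback and immediate early genes, 100 other genes of the pathway lists and all 14916 named genes. The bar for the 10 genes lower on FOXQ1, 8 genes, is the longest; each line is 1 array and there are no error bars.

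The inhibitors that act upstream of RAF came first. SPRY4 had a level of 9.6 on LACZ, 9.6 on ZEB2, 10.29 on TWIST1, 10.22 on SNAI1 and 4.34 on FOXQ1. Only the FOXQ1 array stood apart, below the floor, and the other 4 arrays lay within 0.69 of one another. The FOXQ1 difference was -5.26, which ranked 43 from the lowest among the named genes. Because the FOXQ1 level was below the floor, the size of that difference is not exact. SPRY1, its relative, was at 6.96 on LACZ, 4.84 on ZEB2, 5.39 on TWIST1, 4.02 on SNAI1 and 4.72 on FOXQ1. Here LACZ was the high array and all 4 factor arrays were lower, with differences, in the order FOXQ1, SNAI1, TWIST1 and ZEB2 used throughout, of -2.24, -2.94, -1.57 and -2.12. The SNAI1 level was below the floor and that of FOXQ1 at it. The 2 Sproutys thus differed in which arrays were low: SPRY4 was low on 1 factor array and SPRY1 on all 4.

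SPRED2, a Sprouty-related protein that brings the RAS inhibitor neurofibromin to the membrane, was at 10.54 on LACZ, 10.22 on ZEB2, 9.96 on TWIST1, 9.56 on SNAI1 and 8.9 on FOXQ1. Its levels spanned 1.64, the narrowest range of the 10 genes. The difference was -1.64 on FOXQ1, and on SNAI1 it was -0.98, just short of the 2-fold threshold. From LACZ to ZEB2, TWIST1, SNAI1 and FOXQ1, neighbouring lines in this order differed by 0.26 to 0.66, all under 2-fold.

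**Figure D2:**
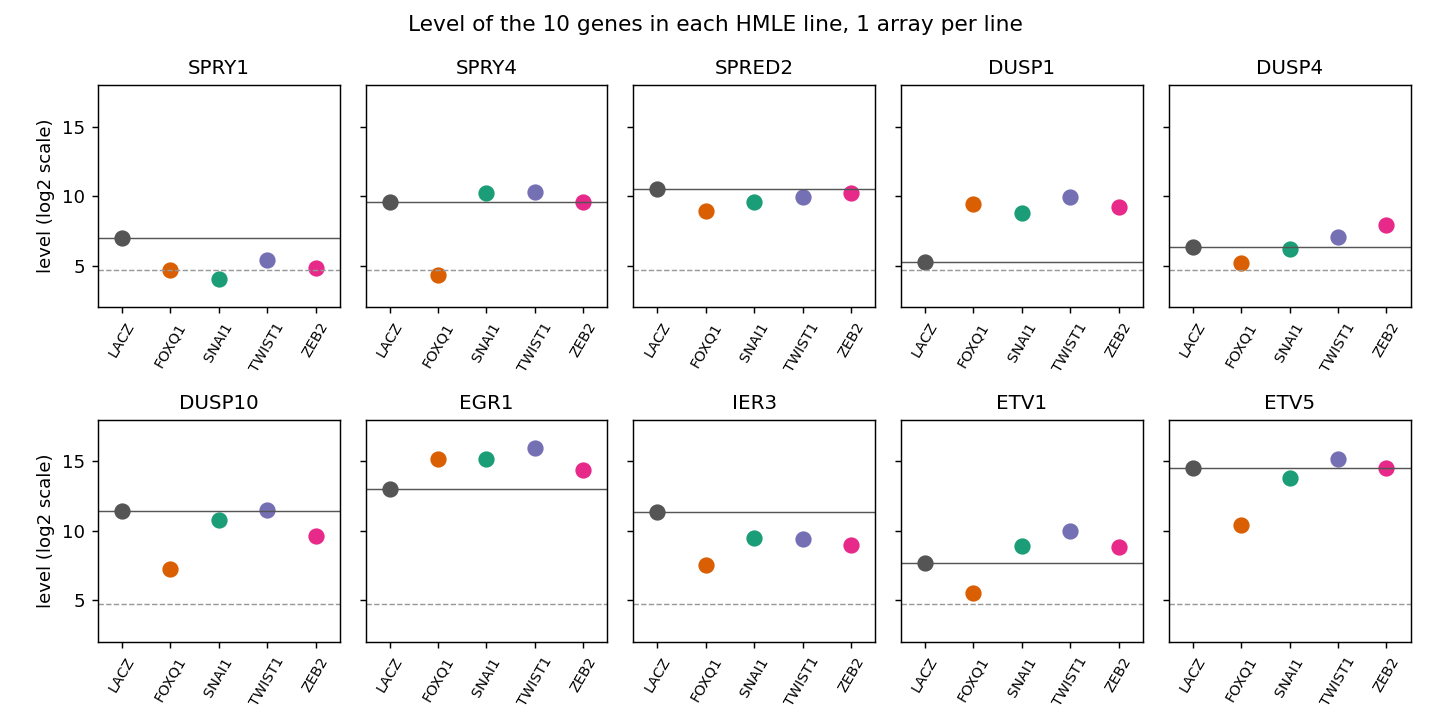
Level of each of the 10 genes on the 5 arrays, on the deposited log2 scale; each point is 1 array, the solid line is the LACZ level and the dashed line the floor of 4.72. FOXQ1 is the lowest point for SPRY4, SPRED2, DUSP4, DUSP10, IER3, ETV1 and ETV5, and LACZ is the lowest for DUSP1 and EGR1; levels of different genes are not comparable.

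The phosphatases did not move as one. DUSP1, which acts on p38 and JNK as well as ERK and is itself an immediate early gene, had a level of 5.23 on LACZ, 9.24 on ZEB2, 9.91 on TWIST1, 8.81 on SNAI1 and 9.45 on FOXQ1. All 4 factor arrays were above LACZ, by 4.22, 3.58, 4.68 and 4.01, and they lay within 1.1 of one another. Those differences ranked 76, 77, 59 and 68 from the highest among the named genes. LACZ was only a little above the floor, so the sizes are not exact. The other 2 phosphatases were lower on FOXQ1 instead.

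DUSP10, which acts mainly on JNK and p38, was at 11.42 on LACZ, 9.63 on ZEB2, 11.48 on TWIST1, 10.78 on SNAI1 and 7.23 on FOXQ1. It was lower on FOXQ1 and ZEB2, with differences of -4.19 and -1.79, while SNAI1 and TWIST1 were within 0.64 of LACZ. DUSP4, a nuclear phosphatase of ERK and JNK, was at 6.31 on LACZ, 7.93 on ZEB2, 7.04 on TWIST1, 6.19 on SNAI1 and 5.21 on FOXQ1. FOXQ1 was the lowest array, at -1.1, just past the 2-fold threshold, and ZEB2 the highest, at 1.62. FOXQ1 and ZEB2 therefore lay on opposite sides of LACZ, 2.72 apart, a difference that 1 array a line cannot test.

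The immediate early genes EGR1 and IER3 went opposite ways. EGR1, a zinc finger transcription factor switched on by ERK through serum response factor, was at 12.98 on LACZ, 14.36 on ZEB2, 15.99 on TWIST1, 15.19 on SNAI1 and 15.16 on FOXQ1. LACZ was the lowest array, and the differences were 2.18, 2.21, 3.01 and 1.38. FOXQ1 and SNAI1 were 0.03 apart, while TWIST1 was 1.63 above ZEB2. IER3, which is induced early by growth factors and NF-kB and acts in cell survival, was at 11.38 on LACZ, 8.98 on ZEB2, 9.45 on TWIST1, 9.48 on SNAI1 and 7.54 on FOXQ1. LACZ was the highest array and FOXQ1 the lowest. The IER3 differences were -3.84, -1.9, -1.93 and -2.4, and FOXQ1 minus each other factor array was between -1.94 and -1.44.

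**Figure D3:**
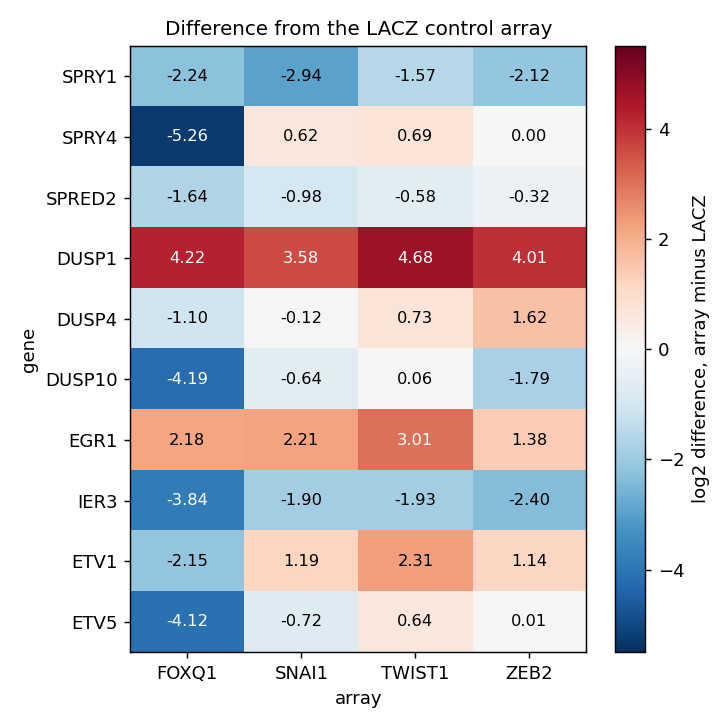
Log2 difference from the LACZ array for the 10 genes (rows) on the 4 factor arrays (columns), with the value in each cell; red is higher and blue lower than LACZ. The DUSP1 and EGR1 rows are red in every column, and the SPRY1, SPRED2 and IER3 rows blue, with SPRED2 called lower on FOXQ1 alone. The FOXQ1 column is blue for 8 of 10 genes.

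The ETS factors were lower on FOXQ1 than on any other array. ETV5 was at 14.52 on LACZ, 14.53 on ZEB2, 15.16 on TWIST1, 13.8 on SNAI1 and 10.4 on FOXQ1. The FOXQ1 difference was -4.12, and those of the other arrays, -0.72, 0.64 and 0.01, were under 2-fold. ETV1 was at 7.71 on LACZ, 8.85 on ZEB2, 10.02 on TWIST1, 8.9 on SNAI1 and 5.56 on FOXQ1. It was 2-fold or more below LACZ on FOXQ1, at -2.15, and above it on SNAI1, TWIST1 and ZEB2, at 1.19, 2.31 and 1.14. SNAI1 and ZEB2 differed by 0.05, and TWIST1 was above both by at least 1.12.

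Across the 4 factor arrays, 2 of the 10 genes, DUSP1 and EGR1, were called higher on every array, against 2.17% of all named genes, and 2, SPRY1 and IER3, lower on every array, against 2.29%. These 4 comparisons share the LACZ array, so a high or low LACZ value alone would make the calls coincide. At a 3-fold threshold 1 gene, DUSP1, was higher and 1, IER3, lower on every array. The pairs of factor arrays do not use LACZ. SPRY4, DUSP10, IER3, ETV1 and ETV5 were called lower on FOXQ1 than on each of SNAI1, TWIST1 and ZEB2, 5 of 10 genes against 2.26% of all named genes, and 0 were higher, against 1.47%. The same 5 were also called lower on FOXQ1 than on LACZ, so FOXQ1 lay below all 4 other arrays for 5 of 10 genes, against 1.52% of all named genes. Pair by pair, 5 of 10 were lower on FOXQ1 than on SNAI1, against 3.83% of all named genes, 7 lower than on TWIST1, against 5.4%, and 7 lower than on ZEB2, against 6.59%. In the other direction 0 of 10 were called, against 7.21%, 2.33% and 3.89%. These comparisons share the FOXQ1 array. Without the SNAI1 array the count below all other arrays was 7, with SPRED2 and DUSP4 added. Without the TWIST1 array or without the ZEB2 array it stayed at 5. The share of all named genes was not computed with an array left out, so these counts have no background.

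Against each of the 3 arrays the largest of these gaps was that of SPRY4, for which FOXQ1 minus SNAI1, TWIST1 and ZEB2 was -5.88, -5.95 and -5.26. The values were -3.4, -4.76 and -4.13 for ETV5, -3.34, -4.46 and -3.29 for ETV1, and -3.55, -4.25 and -2.4 for DUSP10. IER3 had the smallest against each array, at -1.94, -1.91 and -1.44. SPRY1, DUSP1 and EGR1 differed by under 2-fold between FOXQ1 and each other factor array, by 0.83 at most.

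Among the other 3 factor lines fewer of the genes were apart. TWIST1 and ZEB2 differed in 3 of 10 genes, DUSP10, EGR1 and ETV1, all higher on TWIST1, by 1.85, 1.63 and 1.17, against 2.79% of all named genes; 0 were lower, against 2.17%. SNAI1 was lower than TWIST1 for SPRY1, DUSP1, ETV1 and ETV5, 4 of 10 genes, at -1.37 to -1.1, against 7.03% of all named genes, and higher for 0, against 1.35%. This count was 2 after quantile normalization over all probe sets and 1 over the named genes. SNAI1 and ZEB2 differed in DUSP10, higher on SNAI1 by 1.15, against 1.35%, and in DUSP4, at -1.74 for SNAI1 minus ZEB2, against 6.3%.

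**Figure D4:**
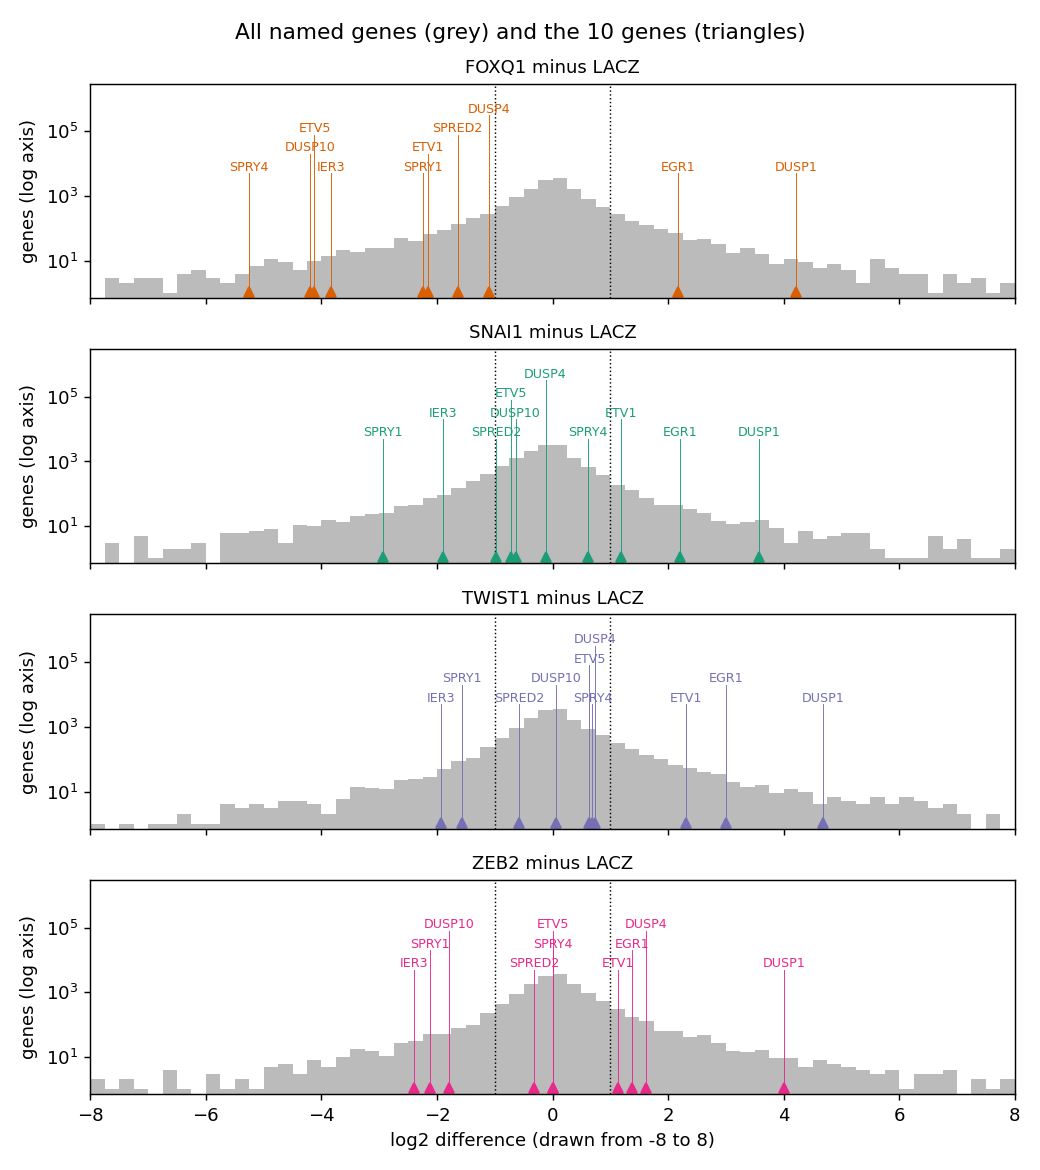
Number of named genes (grey, log axis) by log2 difference from LACZ in steps of 0.25 for each factor array, with the 10 genes marked as triangles and the 2-fold thresholds dotted. On FOXQ1 the 10 genes all lie outside the dotted lines; on the other arrays several sit between them.

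Transcripts that overlap the members were looked at next. SPRY4-IT1, a long noncoding transcript inside SPRY4, was at 7.9 on LACZ, 8.06 on ZEB2, 8.33 on TWIST1, 8.85 on SNAI1 and 5.29 on FOXQ1. FOXQ1 was again the lowest array, at -2.61 from LACZ. ETV5-AS1, antisense to ETV5, was at 4.76, 3.27, 5.06, 4.9 and 4.96 on LACZ, FOXQ1, SNAI1, TWIST1 and ZEB2, a difference of -1.49 on FOXQ1 with every level near or below the floor. Whether the probes tell these transcripts from their host genes is not stated in the sources used here.

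Around each member the 10 nearest named genes with an array at the floor, 5 on each side, were taken as neighbours. On FOXQ1, where 12.3% of genes at the floor were lower, SPRY4 had 4 lower neighbours, SPRY4-IT1 among them, EGR1 had 4, DUSP10 had 3 and SPRED2 had 2. ETV5 had 1, its own antisense transcript ETV5-AS1, while SPRY1, DUSP1, DUSP4, IER3 and ETV1 had 0 lower neighbours. In the other direction, 11.5% of genes at the floor were higher on FOXQ1. SPRY1 and ETV1 had 4 higher neighbours each, and DUSP1 and IER3 had 2 each. SPRY4, SPRED2, DUSP4, EGR1 and ETV5 had 1 each, and DUSP10 had 0. The median FOXQ1 difference of the neighbours was -0.84 for SPRY4, -0.46 for DUSP10, -0.3 for EGR1, -0.16 for ETV1, -0.11 for IER3 and -0.06 for SPRED2. It was 0.01 for ETV5, 0.18 for DUSP4, 0.42 for DUSP1 and 0.49 for SPRY1. DUSP10 also had 3 lower neighbours on each of SNAI1, TWIST1 and ZEB2, where 14.1%, 7.42% and 7.59% of genes at the floor were lower. The differences of DUSP10 itself on these arrays were -0.64, 0.06 and -1.79, called on ZEB2 alone. For the neighbours of DUSP1 the medians were 0.42, 0.25, 0.83 and 0.76 in the usual order of the factor arrays, against 3.58 or more for DUSP1. FGF2, which encodes a ligand of this pathway, lies close to SPRY1 and differed in the opposite direction, by 1.56, 2.38, 2.7 and 3.52.

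The genes whose 5 levels were most like those of a member, after each gene's mean was taken off, were found by Euclidean distance over the 5 arrays among the 8495 genes at the floor. RNF130 and NT5E were among the 3 nearest to both SPRY4 (distances of 1.18 and 1.6) and ETV5 (0.8 and 0.69). FOXP1 was the other for SPRY4, at 1.54, and RCL1 for ETV5, at 1.08. Nearest to DUSP1 were DPYSL2 at 0.45, SPARC at 0.5 and PDGFC at 0.56. EGR1 was closest to PROS2P, TCEA3 and ZFHX4, at 0.44 to 0.56, and SPRY1 to RNF19B, CAB39 and ISG15, at 0.21 to 0.33. IER3 had ABRACL, ARHGEF35 and ELOVL4, at 0.6 to 0.7, and DUSP10 had MALL, FBXO16 and P3H2, at 1.2 to 1.24. For ETV1 they were GPR3, TLL1 and CDA, at 0.94 to 1.14, and for DUSP4 GPATCH4, NLN and FIGN, at 0.28 to 0.52. Smaller distances tended to go with genes of smaller range, though not always: DUSP1 had a range of 4.68 and a nearest distance of 0.45, DUSP10 4.25 and 1.2. The distances therefore do not rank the members.

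Of 199 other genes listed for the pathway, 100 were measured, that is, were among the named genes. The named genes lay on chromosomes 1 to 9, with chromosome 9 in part, so listed genes on other chromosomes were not analysed here. FOXQ1 had 13 higher and 24 lower, SNAI1 15 and 19, TWIST1 24 and 11, and ZEB2 21 and 10. As these are 100 genes, the counts are also percentages, to be read against the shares of all named genes and of genes at the floor given above. The single lists held 3 to 23 measured genes and were not compared with those shares. Their counts below therefore do not set a list apart from other genes. The median differences over all 100 genes were -0.17, -0.16, 0.11 and 0.04 in the usual order of the factor arrays. The lists were written with earlier results of these arrays known.

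Among 18 measured growth factor ligands, FOXQ1 had 8 lower and 2 higher, SNAI1 4 and 3, TWIST1 5 and 4, and ZEB2 2 and 7. TGFA, a ligand of the EGF receptor, was lower on all 4, at -1.37, -2.54, -2.27 and -2.16, as was VEGFA, which acts on endothelial cells, at -2.51, -1.45, -1.04 and -1.4. HBEGF, another EGF receptor ligand, was lower on FOXQ1, SNAI1 and TWIST1 and at -0.66 on ZEB2. PDGFC, a ligand of PDGF receptors, was higher by 3.95, 3.56, 4 and 3.89. VEGFC was higher on SNAI1, TWIST1 and ZEB2, and lower on FOXQ1.

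Of 9 receptor tyrosine kinases, FOXQ1 had 2 higher and 2 lower, SNAI1 2 and 2, TWIST1 3 and 1, and ZEB2 2 and 1. EGFR was lower on all 4, at -1.07, -2.54, -1.17 and -1.1. MET, the receptor of hepatocyte growth factor, was at -1.61 on FOXQ1 and -1.38 on SNAI1. FGFR1 was at 3.02 on LACZ, 7.67 on ZEB2, 7.18 on TWIST1, 6.31 on SNAI1 and 6.61 on FOXQ1, so its LACZ level was below the floor. PDGFRB was higher by 5.08, 3.02, 3.84 and 1.98, and PDGFRA was called on TWIST1 alone, at 4.04.

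The RAS to ERK core had 7 measured genes, of which FOXQ1 had 2 higher and 1 lower, SNAI1 2 and 2, TWIST1 3 and 1, and ZEB2 2 and 2. In the probe sets used, RPS6KA1 and RPS6KA2, kinases activated by ERK, went opposite ways on every array. RPS6KA1 differed by -1.97, -3.06, -1.24 and -1.41 and RPS6KA2 by 5.23, 1.49, 3.62 and 4.76. RPS6KA1 had 2 probe sets, and its values are those of the brighter 1. With the median of probe sets, 23 of the 100 pathway genes were lower on FOXQ1 instead of 24. The counts on TWIST1 and ZEB2 were 10 and 9 instead of 11 and 10. Of those lower genes only RPS6KA1 had 2 probe sets. RPS6KA2 was below the floor on LACZ, at 4.28, so the sizes of its differences are not exact. MRAS, a RAS relative, was at -0.15 on FOXQ1 and higher on the other 3, by 5.07, 5.04 and 1.66. The adaptor SHC1 was higher on FOXQ1 and TWIST1, at 1.54 and 1.1. SOS1, a RAS exchange factor, was called on SNAI1 alone, at -1.03, and the adaptor GAB1 on ZEB2 alone, at -1.04. Of 3 RAS GTPase activating proteins 1 was called, RASA2, at -1.82 on SNAI1.

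Of 10 other genes of the dual-specificity phosphatase family, FOXQ1 had 0 higher and 2 lower, SNAI1 1 and 2, TWIST1 1 and 0, and ZEB2 1 and 1. Not all of this family act on MAPKs. DUSP23 was at -0.4 on FOXQ1 and higher on the other 3, by 2.59, 2.67 and 2.64. DUSP22 was lower on SNAI1 and ZEB2, at -1.39 and -1.46, DUSP11 on FOXQ1, at -1.22, and DUSP7 on SNAI1, at -1.17. Of 7 other feedback inhibitors 2 were lower on FOXQ1, TRIB1 at -1.69 and TRIB2 at -1.2, and 0 were called on SNAI1. On TWIST1 3 were higher: TRIB2 at 1.81, ERRFI1, an inhibitor of the EGF receptor, at 1.26, and IL17RD, an inhibitor of FGF signalling also known as SEF, at 2.32. IL17RD was the 1 called on ZEB2, also higher, at 2.23.

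Of 23 other immediate early genes, FOXQ1 had 2 higher and 3 lower, SNAI1 6 and 3, TWIST1 7 and 3, and ZEB2 5 and 3. CCN1, a matricellular protein, was higher on all 4, by 1.47, 1.54, 2.05 and 1.48, and so was its relative CCN2. SGK1, a serum-induced kinase, was higher on SNAI1, TWIST1 and ZEB2, by 3.15, 3.47 and 3.2, and at 0.59 on FOXQ1. ATF3, a stress-induced factor, was lower on all 4, at -2.08, -2.73, -2.36 and -1.53, and so was HES1, a Notch target, at -1.78, -3.17, -1.77 and -3.28. PLK2 was lower on SNAI1, TWIST1 and ZEB2, at -2.97, -1.11 and -1.45, and at -0.9 on FOXQ1. The EGR1 relative EGR3 stayed under 2-fold on every array, at 0.82, 0.67, 0.95 and -0.61.

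Of 7 other ETS and serum response factors, SRF, which binds the CArG box, was higher on FOXQ1, TWIST1 and ZEB2, at 1.14, 1.47 and 1.53, and at 0.46 on SNAI1. SRF had 2 probe sets, and its values are those of the brighter 1. ELF2 was higher on FOXQ1, at 1.24, and 0 of the 7 were lower on any array. Of 5 other ERK output genes 1 was higher on each array, and 3 were lower on FOXQ1, 2 on SNAI1 and 1 on TWIST1 and ZEB2. UPP1, a uridine phosphorylase, was lower on all 4, at -4.43, -3.67, -3.35 and -3.6, and CDC42EP3, a regulator of the cytoskeleton, was higher, by 1.3, 1.48, 1.86 and 1.96. CDC42EP3 had 2 probe sets, and its values are those of the brighter 1. With the median of probe sets, 14 of the 100 pathway genes were higher on SNAI1 instead of 15. Among those 15 only CDC42EP3 had 2 probe sets. The count was 12 on FOXQ1 instead of 13 and 23 on TWIST1 instead of 24, and it stayed at 21 on ZEB2. On FOXQ1 and TWIST1 both CDC42EP3 and SRF were among the higher genes, and which gene lost its call was not looked at. EPHA2, an ephrin receptor, was lower on FOXQ1 and SNAI1, at -1.11 and -1.39, and HMGA1 on FOXQ1, at -1.12. In the p38 and JNK pathway, whose kinases are the substrates of DUSP1 and DUSP10, 2 of 11 genes were higher and 3 lower on FOXQ1, 0 and 3 on SNAI1, and 1 and 0 on both TWIST1 and ZEB2. MAP3K5, a stress-activated kinase also called ASK1, was higher on FOXQ1, TWIST1 and ZEB2, by 3.29, 1.63 and 1.11. TAB2 was higher on FOXQ1, at 1.23. MAP3K1 was lower on FOXQ1 and SNAI1, at -1.69 and -2.49, MAPK9, which encodes a JNK kinase, at -1.39 and -1.35, and MAPK10 on SNAI1, at -1.69.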

How the data were processed

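Arrays from 5 lines, 1 each, were grouped by their titles. Per the submitters' processing notes, the Transcriptome Analysis Console and hg38 were used, with no version, setting or normalization named. The values the authors deposited are read as log2 (base 2 assumed) and run from 1.99 to 19.73, with array medians of 4 to 4.05, for 65521 probe sets. A platform annotation gave 16126 probe sets 1 symbol, 419 several and 48976 none. RefSeq (GRCh38.p14) named 15764, and 194 with a differing chromosome were left out. Where a gene had several probe sets, the one with the highest mean was used. Named genes lay on chromosomes 1 to 9, with chromosome 9 in part; other chromosomes were not analysed here.

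Calls needed a 2-fold difference with the brighter array at or above the median gene mean, 4.72. No detection calls were used, and the number of arrays limits the precision. The members and lists were chosen with earlier results of these data known. Beside the members, the text names up to 3 genes per list and direction, called on the most arrays, the 3 nearest genes per member whose levels range over at least 2, the overexpressed factors, the cell type markers and the transcripts that overlap a member. EGR3 was named after its values were seen. Alternatives were other scalings, floors, thresholds and probe set rules. Computations ran in Python 3.11.15 with pandas 2.3.3, numpy 2.4.6 and, for the loess, statsmodels 0.14.6.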

Additional observations from a re-analysis of the deposited data

Results flagged for a closer look

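DUSP4 and ETV1 were called in opposite directions on different factor arrays. DUSP4 was lower than LACZ on FOXQ1 and higher on ZEB2, and ZEB2 minus FOXQ1 was 2.72. ETV1 was lower on FOXQ1 and higher on the other 3 arrays, and SNAI1, TWIST1 and ZEB2 minus FOXQ1 were 3.34, 4.46 and 3.29. With the floor at percentile 75 neither gene was called on FOXQ1. These differences between lines were not tested, since each line had 1 array.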

How the results depend on the processing

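All 200 recomputed differences of the 10 genes from LACZ, under 5 alternatives (quantile normalization over all probe sets or over the named genes, centring, loess, and the median of probe sets), kept their direction where called and their side of the threshold; each gene has 1 probe set, so the last could not move them.

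With a floor at percentile 75, FOXQ1 had 5 lower genes, SNAI1 and TWIST1 had 1 each, and 1 was lower on all 4 arrays. With a 3-fold threshold, 2 were higher on ZEB2, 1 was lower on TWIST1, and 1 was higher and 1 lower on all 4; SNAI1 and TWIST1 differed in 0 genes and SNAI1 and ZEB2 in 1. With a 1.5-fold threshold, 6 were higher on TWIST1 and 5 lower on SNAI1; FOXQ1 and SNAI1 differed in 9, and SNAI1 and TWIST1, SNAI1 and ZEB2, and TWIST1 and ZEB2 in 7 each. After quantile normalization SNAI1 and TWIST1 differed in 2 genes, or in 1 over the named genes, where SNAI1 and ZEB2 differed in 4. The count lower on FOXQ1 than on every other array ran from 4 to 7 over 12 alternatives. Quantile normalization over the named genes, added after seeing the data, moved the share of called genes that were higher from 34.7% to 49.7% on SNAI1 and from 63.3% to 53% on TWIST1. No paired analysis was possible because each group has 1 array. Without replicates or detection calls, signal over background is unknown; the higher floor ended the FOXQ1 calls of SPRY1, DUSP4 and ETV1.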
